A study of Mus musculus with 3 samples.

Results

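The clustered histone genes are the genes whose symbol starts with Hist1h, Hist2h, Hist3h or Hist4h. Of 18738 genes listed in at least 1 of 3 count tables, 68 carried such a symbol, and 65 of them were listed in all 3 tables. They encode 6 H1, 19 H2A, 18 H2B, 12 H3 and 13 H4 genes by name. The tables held UMI counts (unique molecular identifiers, one per captured RNA molecule) of fetal ovarian somatic cells (FOSCs) from CD1 mice at E12.5 (embryonic day). Each of 3 cryopreserved lots (26, 29 and 30) pooled the embryos of 10 pregnant mice, was depleted with SSEA1 and CD31 beads, frozen, thawed and run on the 10X Chromium 3′ v3 assay. All 3 lots shared this 1 condition, so there was no treated or control group, and each lot was 1 replicate (n = 3).

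Histones package DNA: H2A, H2B, H3 and H4 form the core of the nucleosome and H1 binds the linker. Most clustered histone genes are replication-dependent, which means that their mRNA accumulates in S phase, and this mRNA normally ends in a conserved stem-loop instead of a poly(A) tail. Histone variants encoded outside the clusters, such as H3f3a or H2afz, are made throughout the cell cycle with poly(A) tails. The 3′ assay primes on poly(A), so a level here counts the molecules that such priming captured, and how much of the histone mRNA was missed was not tested.

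Cells were kept at 200 to 9000 detected genes and at most 10% mitochondrial UMIs, which left 9711, 8553 and 10707 cells from lots 26, 29 and 30, with median depths of 11126, 8949 and 11595 UMIs. Between 20 and 30 barcodes were shared by each pair of lots. Clusters, built without the members, Top2a or Mki67, were named from marker lists. The 4 large classes were pre-granulosa-like (13319 cells), stromal-like (6288), epithelial-like (5441) and germ-like (1473), the last despite the SSEA1 depletion. Small classes were endothelial-like, macrophage-like (S100a8 and S100a9, abundant in neutrophils, led it), red blood cell-like and, against the ovarian label, 389 Sertoli-like cells, 284 of them from lot 29. Another 1501 cells stayed unnamed and entered only the sums over all cells. They included a cluster of 638 cells whose leading genes included Cyp11a1, Insl3 and Cyp17a1, 413 of them from lot 29. Most cells of 1 pre-granulosa-like cluster, led by heat-shock genes, came from lot 30 (2879 of 3148). Fewer cells of a type and less RNA per cell cannot be told apart in the sums over cells used below. The labels give the lots no further batch.

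In the GENCODE vM21 annotation (GRCm38), 55 members lie on chromosome 13, 10 on chromosome 3, 2 on chromosome 11 and 1 on chromosome 6. All chromosome 13 members but Hist1h2al lie between 21715763 and 23934851. Hist1h2al is annotated as a processed pseudogene at chr13:51202727-51203065 on the minus strand, and the other 67 members as protein-coding. A perfect hairpin with a 6-base stem that begins with GG and a 4-base loop that begins with TT was found in the annotated transcripts of 44 members. The stem was GGCTCT in all 33 members of this set that are not H4 genes. In the 11 H4 genes it was GGCCCT in 9 and GGTCCT in 2. The following sites, with both arms of the stem in capitals and 5 bases on either side, show the hairpin of highly counted members, of Hist1h4j as a rarely counted H4 gene with the other stem, and of the 2 Hist3 genes, whose values below differ from these (DNA letters, transcript strand, 5′ to 3′).
Hist1h2ae: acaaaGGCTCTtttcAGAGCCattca
Hist1h2ab: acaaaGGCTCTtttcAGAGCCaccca
Hist1h1e: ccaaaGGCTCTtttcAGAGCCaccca
Hist1h3c: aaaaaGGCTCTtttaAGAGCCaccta
Hist1h3e: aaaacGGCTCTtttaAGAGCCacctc
Hist1h4d: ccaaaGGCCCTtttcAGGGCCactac
Hist1h4j: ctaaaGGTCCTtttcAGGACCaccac
Hist3h2a: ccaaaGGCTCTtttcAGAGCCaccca
Hist3h2ba: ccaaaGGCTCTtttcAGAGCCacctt
Hist1h2ab ends 11 bases after its hairpin in the annotation, whereas Hist1h2ae runs on for 151 bases, Hist1h4d for 770, Hist1h1e for 1153, Hist3h2ba for 169 and Hist3h2a for 1643. No such hairpin was found in the annotated transcripts of the other 24 members. Their longest annotated transcripts ranged from 312 bases (Hist1h4k) to 2620 bases (Hist2h2be). Whether a hairpin lies past the annotated end was not tested.

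Together the members held 1537900 UMIs, 0.433% of all UMIs in kept cells, and the 4 most counted members held 43.7% of these. Hist1h2ae, an H2A gene at chr13:23570517-23571220 (minus strand), was counted most often with 780 ± 250 CPM (UMIs of the gene per 1000000 UMIs of the kept cells of a lot, mean ± SD, n = 3). It was followed by Hist1h1b, a linker histone gene at chr13:21779883-21780625 (minus), with 584 ± 112 CPM, by the H4 gene Hist1h4d at chr13:23581598-23582735 (plus) with 307 ± 106 CPM and by the linker histone gene Hist1h1e with 298 ± 32.9 CPM. The most counted H3 gene was Hist1h3e with 175 ± 41.7 CPM, and the most counted H2B gene was Hist1h2bj with 95.6 ± 19.2 CPM. At the other end, 12 members had under 1000 UMIs and 6 had under 100 in all lots together. One molecule counts once whatever its length, but the order between genes also follows mapping: the authors used uniquely mapped reads only, and in 27 members at least 50% of the 90-base windows of the transcripts also occur in a transcript of another gene. Hist1h2af, Hist1h2ah, Hist1h2an and Hist1h2ai (66.5, 89.6, 83.9 and 88.8% of windows shared) are among them. So are Hist1h3b, Hist1h2ab and Hist1h3e (57.44, 53.65 and 50.2%). The counts of all these genes are therefore uncertain. Hist1h1e overlaps Hist1h2be by 496 bases and Hist3h2a lies within Trim17 over all its 2146 bases, each on the same strand, so that reads there may be lost or assigned to either gene.

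The first comparison asked which members were counted mainly in proliferating cells. Cells were split by whether they held a UMI of Top2a, the DNA topoisomerase of dividing cells, or Mki67, the proliferation antigen Ki-67. Such UMIs were present in 43.7, 37.2 and 39.4% of cells in lots 26, 29 and 30. The summed members amounted to 6856, 9332 and 5987 CPM in cells with Top2a or Mki67 UMIs, in the order of the lots, and to 1314, 1528 and 1415 CPM in cells without. The highest value without was below the lowest value with, and lot 29 stood above the other lots among the cells with such UMIs. Of 62 members that passed the filter on low counts, 57 were higher in cells with Top2a or Mki67 UMIs and none was lower, at an adjusted p under 0.05 in the edgeR quasi-likelihood test. DESeq2 called 56 higher and none lower, and at an unadjusted p under 0.05 edgeR had 58 higher and none lower. Over all 15366 genes tested, 18.9% were higher. The median log2 fold change was 2.25 over the tested members and -0.01 over all genes. With the lot as a block, 59 members were higher and 1 lower (32.7 and 33% of all genes). The 6 members not tested (Hist2h2aa1, Hist2h2aa2, Hist1h2ap, Hist1h4m, Hist1h2bq and Hist1h2br) had 1 to 30 UMIs each. The cells with Top2a or Mki67 UMIs were also deeper, with medians of 11862 to 14452 UMIs against 7981 to 10441. After the split was made at 4000 UMIs per cell in both, 57 members were again higher.

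Hist1h2ae reached 1126, 1972 and 1028 CPM in the cells with Top2a or Mki67 UMIs of lots 26, 29 and 30, against 150, 207 and 154 CPM in the cells without. The groups did not overlap, and the log2 fold change was 2.97 ± 0.31 (SE, adjusted p = 0.000365). Hist1h1b gave 792, 1279 and 909 CPM against 119, 169 and 200 CPM, a log2 fold change of 2.56 ± 0.27 (adjusted p = 0.000413). Both genes were thus highest in lot 29 among the cells with such UMIs. Hist1h4d, with 395, 750 and 397 CPM against 74.4, 127 and 83.4 CPM, rose by 2.39 ± 0.34 on the log2 scale (adjusted p = 0.00162).

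The remaining highly counted members showed the same separation of the lots. Hist1h1e was at 414, 537 and 395 CPM with and at 132, 144 and 150 CPM without such UMIs (log2 fold change 1.61 ± 0.16, adjusted p = 0.000274). The H3 gene Hist1h3e was at 230, 363 and 218 CPM against 67.1, 90.2 and 71.7 CPM (1.78 ± 0.24, adjusted p = 0.00133), and the H4 gene Hist1h4h at 119, 206 and 109 CPM against 36.4, 53.3 and 36.3 CPM (1.74 ± 0.30, adjusted p = 0.00356). All 3 genes had the lowest lot with above the highest lot without. Among H2A genes, Hist1h2ab was at 455, 388 and 264 CPM against 29.7, 22.5 and 20.3 CPM (3.88 ± 0.23, adjusted p = 2.38e-05). Hist1h2an was at 261, 263 and 149 CPM against 25.5, 24.4 and 17.6 CPM (3.27 ± 0.26, adjusted p = 0.000105). For both, lot 29 was lower than lot 26 or close to it, unlike for Hist1h2ae. Hist2h2ac, an H2A gene of the chromosome 3 cluster, was at 239, 340 and 201 CPM against 53.3, 58.5 and 49.7 CPM (2.22 ± 0.22, adjusted p = 0.000265). Hist1h2ai was at 193, 154 and 119 CPM against 44.3, 30.6 and 29.02 CPM (2.11 ± 0.21, adjusted p = 0.000268). The H2B gene Hist1h2bj was at 189, 156 and 141 CPM against 29.6, 21.6 and 23.9 CPM (2.64 ± 0.14, adjusted p = 1.15e-05).

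The contrast was larger for a set of H3 and H2A genes that were close to absent from cells without Top2a or Mki67 UMIs. The H3 gene Hist1h3c, at chr13:23744973-23745602 (minus), was at 189, 288 and 147 CPM with such UMIs and at 7.55, 8.86 and 6.83 CPM without, a log2 fold change of 4.70 ± 0.30 (adjusted p = 3.48e-05). Hist1h3b, a second H3 gene, was at 121, 95.5 and 63.5 CPM with and at 3.56, 2.42 and 2.05 CPM without (log2 fold change 5.07 ± 0.30, adjusted p = 2.2e-05). For both H3 genes, the level without was under 5% of the level with in every lot. The H2A gene Hist1h2af had the largest contrast of all members with 69.6, 85.8 and 49.9 CPM against 1.13, 1.31 and 0.819 CPM (log2 fold change 5.95 ± 0.29, adjusted p = 8.04e-06). Hist1h2ah, another H2A gene, was at 34.7, 32.3 and 23.9 CPM with and at 1.74, 1.35 and 1.09 CPM without, a log2 fold change of 4.40 ± 0.21 (adjusted p = 7.95e-06). In Hist1h2aa, with 19.2, 10.3 and 6.72 CPM against 0.266, 0.111 and 0.226 CPM, the log2 fold change of 5.79 ± 0.48 (adjusted p = 0.00013) came with germ-like cells, which hold nearly all of its UMIs and nearly all have Top2a or Mki67 UMIs.

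**Figure D1:**
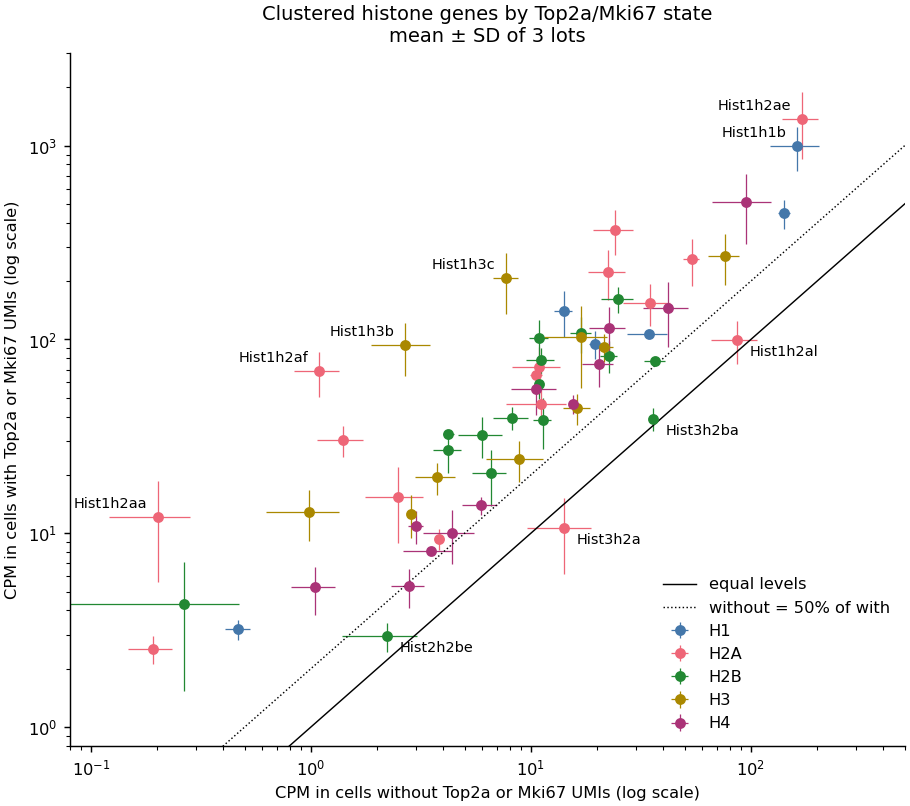
Each point is 1 clustered histone gene with at least 1 CPM in all kept cells, plotted by its level in cells without (x axis) and with (y axis) Top2a or Mki67 UMIs, as mean ± SD of 3 lots on log scales and coloured by histone type. Most genes lie far above the line of equal levels, whereas Hist1h2al, Hist3h2ba, Hist3h2a and Hist2h2be lie closest to that line or below it. The dotted line marks a level without at 50% of the level with.

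Over all kept cells, only 4 members had a level in cells without Top2a or Mki67 UMIs of at least 50% of that in cells with them, in each of the 3 lots: Hist1h2al, Hist2h2be, Hist3h2a and Hist3h2ba. The H2B gene Hist3h2ba, at chr11:58948920-58949533 (plus), was at 33.5, 39.2 and 44.5 CPM with such UMIs and at 34.6, 35.8 and 37.5 CPM without. The groups overlapped and the log2 fold change was 0.07 ± 0.12 (adjusted p = 0.696). Its neighbour Hist3h2a, an H2A gene at chr11:58954685-58956830 (plus), gave 7.20, 9.08 and 15.7 CPM with and 10.9, 12.1 and 19.5 CPM without. It was lower with such UMIs in each of the 3 lots, but the lots differed as much, and the log2 fold change of -0.47 ± 0.32 passed only with the lot as a block (adjusted p = 0.295 without the block and 0.000272 with it). The pseudogene Hist1h2al had 75.2, 125 and 99.6 CPM against 62.9, 98.0 and 97.7 CPM (0.16 ± 0.25 on the log2 scale, adjusted p = 0.648, and 0.0497 with the block). The H2B gene Hist2h2be was rare, with 3.15, 2.36 and 3.32 CPM against 3.01, 1.38 and 2.24 CPM (0.36 ± 0.27, adjusted p = 0.323). A test that does not pass does not show equal levels: the standard errors given here leave room for differences in either direction. Just outside the 50% rule lay the H4 gene Hist1h4j, with 53.2, 49.4 and 54.8% of its level in cells without, and Hist2h3c1, with 57.3, 57.2 and 46.3%. Both were nevertheless higher in cells with such UMIs (log2 fold changes of 0.89 and 0.86, adjusted p = 0.0198 and 0.0279), but the call of Hist1h4j was lost without lot 26 or lot 30 (adjusted p = 0.0804 and 0.0971).

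By histone type, all 6 H1 and all 12 tested H4 members were higher in cells with Top2a or Mki67 UMIs, as were 14 of 16 H2A, 14 of 16 H2B and 11 of 12 H3 members. The H3 member that did not pass was Hist2h3c2, with 133 UMIs. The summed H2A members had 2816 ± 743 CPM with and 448 ± 39.7 CPM without such UMIs, and the summed H2B members 905 ± 110 and 213 ± 5.67 CPM (mean ± SD, n = 3). The linker histones gave 1787 ± 381 and 373 ± 55.2 CPM, H3 880 ± 226 and 158 ± 12.9 CPM, and H4 1003 ± 321 and 227 ± 44.7 CPM. Median log2 fold changes were 2.63 for H2A, 2.39 for H1, 2.37 for H2B, 2.06 for H3 and 1.77 for H4.

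Lists of related genes gave the scale of this contrast. All 15 genes of a G2 and M phase list were higher, with a median log2 fold change of 4.26, and all 18 of an S phase list, with 1.72. Of the replication-independent histones, 7 of 12 tested genes were higher and none lower, with a median of 0.48. The rises were seen in H2afx, the DNA damage histone (1.90 ± 0.21, adjusted p = 0.000478), H2afz (1.21 ± 0.18, adjusted p = 0.00171) and Cenpa, the centromeric H3 (3.39 ± 0.19, adjusted p = 1.93e-05), and in H2afv, H2afy, H1f0 and H1fx. The H3.3 genes H3f3a (-0.09 ± 0.12) and H3f3b (0.00 ± 0.16) did not pass. With the lot as a block, 3 genes of this list were lower, where 33.0% of all genes were lower. Among 16 genes of histone transcription and mRNA processing, 8 were higher and 2 (Lsm10 and Pcf11) lower. Slbp, the protein that binds the histone stem-loop, rose by 0.49 ± 0.11 (adjusted p = 0.0131) and Npat, the coactivator of histone transcription, by 0.33 ± 0.08 (adjusted p = 0.0115). Of 15 histone chaperones, 9 were higher, including Asf1b (3.18 ± 0.17, adjusted p = 1.27e-05) and the CAF-1 subunit Chaf1a (1.12 ± 0.10, adjusted p = 0.000197).

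To separate early S phase genes from Top2a and Mki67, every cell of at least 4000 UMIs was thinned to 4000 UMIs and sorted by its UMIs of both kinds. In cells with no Top2a or Mki67 UMI after thinning, the summed members stayed at 1452 ± 124, 1467 ± 70.2 and 1462 ± 135 CPM for 0, 1 and 2 UMIs of the S phase list (mean ± SD of 3 lots), and reached 2944 ± 663 CPM at 4 or more. In cells with 4 or more Top2a and Mki67 UMIs, they went from 5687 ± 896 CPM without S phase UMIs to 17331 ± 2805 CPM with 4 or more. The last value equals 1.73% of all UMIs of these cells. In each of the 3 lots the cells with 4 or more UMIs of both kinds had the highest level of all bins, at 16472, 20465 and 15055 CPM.

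**Figure D2:**
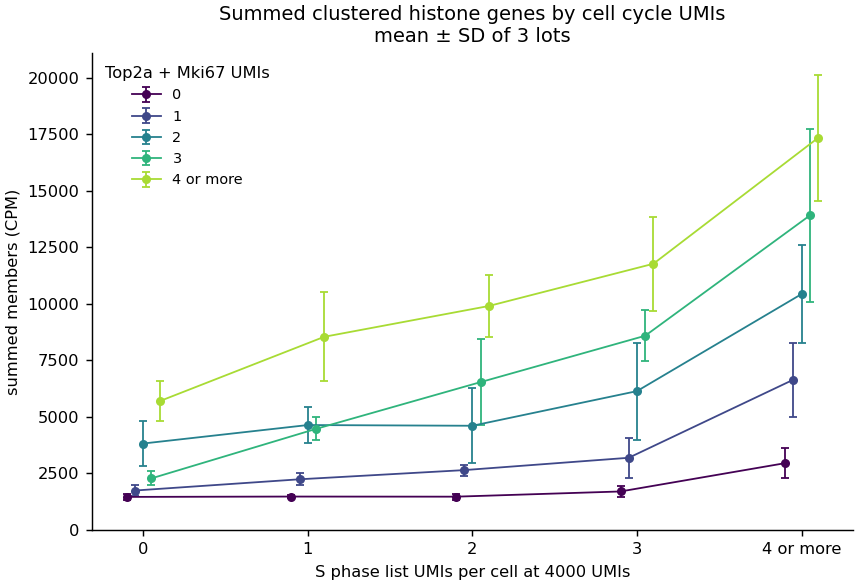
Summed CPM of the clustered histone genes (y axis) by UMIs of the S phase list per cell (x axis) and by summed Top2a and Mki67 UMIs (line colour), both counted after thinning to 4000 UMIs. Points are means and bars SD of 3 lots, and the line for no Top2a or Mki67 UMI is flat up to 2 S phase UMIs and ends at 2944 CPM, whereas the line for 4 or more ends at 17331 CPM.

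Among cells without any Top2a or Mki67 UMI at full depth, those with 2 or more S phase UMIs after thinning were compared with those that had none. All 18 S phase genes were higher, as the split requires. The summed members were at 1292, 1512 and 1345 CPM with S phase UMIs and at 1321, 1546 and 1460 CPM without, in the order of the lots. None of 57 tested members was higher (against 1.81% of all genes) and 1 was lower (against 0.951%), with a median of 0.01 on the log2 scale. The member that fell was Hist3h2ba, at 27.9, 26.3 and 26.9 CPM against 40.1, 40.2 and 44.1 CPM (log2 fold change -0.63 ± 0.08, adjusted p = 0.0066), and its call was lost without any 1 of the lots (adjusted p of 0.0677 to 0.221, and 0.0779 without lot 26). With the lot as a block, 10 members were higher and 9 lower, near the shares of all genes in that fit (16.4% higher and 15.5% lower). The replication-independent histones gave 0 of 11 higher or lower, or 5 higher and 3 lower with the block. At an unadjusted p under 0.05, edgeR had 3 members higher and 1 lower, and DESeq2 called 0 higher and 1 lower after adjustment.

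The contrast by Top2a or Mki67 UMIs was then taken within each of the large somatic classes. This removes differences in the makeup by class. Each class merged several clusters, whose makeup can still differ between cells with and without such UMIs. In stromal-like cells 55 of 59 tested members were higher (5.89% of all genes) with a median log2 fold change of 3.01. In epithelial-like cells 57 were higher (5.86% of all genes), with a median of 2.40. In pre-granulosa-like cells 43 were higher (4.61% of all genes), with a median of 1.34, and no member was lower in any of the 3 classes by edgeR, also at an unadjusted p under 0.05, or by DESeq2. The pre-granulosa-like count fell to 0 when clusters were made at resolution 0.4, where the median was 0.01 and fewer of the class's cells held Top2a or Mki67 UMIs (11.6 to 19.5% against 15.5 to 22.4%). These were 835, 406 and 890 cells of lots 26, 29 and 30, against 993, 565 and 1176 at resolution 0.8. Epithelial-like cells with such UMIs went up, from 941, 1030 and 1252 to 1102, 1192 and 1551. At resolution 0.8 the pre-granulosa-like class included a cluster of 635 cells whose leading genes included Ube2c and Birc5. How far the count of 43 rests on that cluster was not tested. The summed members in cells with Top2a or Mki67 UMIs were 10219, 12312 and 8002 CPM in stromal-like cells, 8910, 11572 and 7335 CPM in epithelial-like cells and 3434, 5885 and 3583 CPM in pre-granulosa-like cells. The last were below both other classes in every lot. In cells without, the 3 classes were at 1145 ± 122, 1341 ± 130 and 1546 ± 129 CPM.

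Members that did not pass over all cells could pass within a class. Hist1h2al rose by 1.45 ± 0.28 in stromal-like cells (adjusted p = 0.00195) and by 1.21 ± 0.28 in epithelial-like cells (adjusted p = 0.00803), and was at 71.1, 121 and 106 CPM with against 76.1, 129 and 123 CPM without in pre-granulosa-like cells. Hist3h2ba rose only in epithelial-like cells among these 3 fits (0.64 ± 0.12, adjusted p = 0.00176), where it had 57.6, 57.5 and 71.4 CPM against 40.5, 39.5 and 36.4 CPM. Hist2h2be also passed in epithelial-like cells (1.50 ± 0.35, adjusted p = 0.0077). Hist3h2a passed in none of the 3 classes, with log2 fold changes of -0.04 ± 0.31, -0.19 ± 0.35 and -0.03 ± 0.34 in pre-granulosa-like, stromal-like and epithelial-like cells. Whether these contrasts differ between the somatic classes was not tested. These values come from the fits without the lot as a block, although the lots pair the sums. With the block, the share of all genes called higher went from 4.61 to 12.1% in pre-granulosa-like cells. It went from 5.89 to 11.8% in stromal-like and from 5.86 to 12.4% in epithelial-like cells. Members that did not pass within a class may therefore pass with the block, and single members were not compared between these fits.

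Germ-like cells had Top2a or Mki67 UMIs in 96.4 to 98.9% of cells, and only 7 to 12 cells per lot had none, so that their contrast was taken after thinning to 4000 UMIs per cell. At that depth 68 to 136 germ-like cells per lot had no such UMI, although most of these had one at full depth. The summed members were then at 5294, 5636 and 4519 CPM in germ-like cells with such UMIs and at 2920, 3507 and 1815 CPM in those without. At the same split, stromal-like cells gave 12289 ± 2150 and 1428 ± 226 CPM, epithelial-like cells 11067 ± 2164 and 1789 ± 214 CPM and pre-granulosa-like cells 6469 ± 1684 and 1583 ± 143 CPM. Of 61 members tested in germ-like cells, 10 were higher with such UMIs (1.16% of all genes) and none lower, with a median log2 fold change of 0.90. At an unadjusted p under 0.05, 43 were higher and none lower, and DESeq2 called 15 higher and none lower of the 43 members to which it gave an adjusted p. The count was 42 with the lot as a block (4.79% of all genes), and without 1 lot it was 1, 16 or 2 (lots 26, 29 and 30 left out).

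The difference of this contrast between germ-like cells and the mean of the 3 somatic classes was below 0 in 36 of 61 members (2.75% of all genes) and above 0 in none, with a median of -1.50 on the log2 scale. At an unadjusted p under 0.05, 48 were below and none above 0, and DESeq2 called 43 of 60 below and none above. It was -3.13 ± 0.39 for Hist1h3c (adjusted p = 4.79e-06). That gene had 160, 177 and 129 CPM in germ-like cells with and 99.8, 84.4 and 46.9 CPM without Top2a or Mki67 UMIs at 4000 UMIs, against 373, 462 and 244 CPM with and 15.6, 21.8 and 13.4 CPM without in stromal-like cells. The count was 23 without lot 26 and 13 with clusters at resolution 0.4. These differences hold for the split at 4000 UMIs, where most germ-like cells without such UMIs had one at full depth. What part this had was not tested.

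Among the cells with no Top2a or Mki67 UMI at 4000 UMIs, 33 members were higher in germ-like than in somatic classes (34.2% of all genes) and 3 lower (34.9% of all genes), the last being Hist3h2a, Hist3h2ba and Hist1h2bc. With the block, 37 were higher and 5 lower (35.6 and 36.9% of all genes), and without lot 26 the counts were 25 and 5. The share of members that were higher lay above the share of all genes, and the share that were lower lay far below it. Most of these germ-like cells had such a UMI at full depth. The 8, 12 and 7 germ-like cells with none at full depth (lots 26, 29 and 30) held 1619, 977 and 1140 CPM of summed members. At full depth, cells with none held 1145 ± 122 CPM in stromal-like, 1341 ± 130 CPM in epithelial-like and 1546 ± 129 CPM in pre-granulosa-like cells. What part the thinning had in the counts of members higher or lower was not tested.

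Over whole classes, members were compared between 7 classes. Against the mean of the other 6, 51 of 60 members were higher in epithelial-like cells (20.6% of all genes), and 38 were higher in stromal-like cells (22.1%). Germ-like cells had 29 members higher (36.6%), and 24 were lower in pre-granulosa-like cells (9.52%). Red blood cell-like cells, with summed members at 345 to 446 CPM and no UMI of 29 members in any lot, entered these means. With DESeq2, 48 members were lower in pre-granulosa-like cells, where the share of all genes also went up (28.7%). In germ-like cells 6 members were lower (23.6% of all genes), or 12 with DESeq2 (35.7%). The 2 members higher in pre-granulosa-like cells (26.1% of all genes) were Hist3h2a and Hist3h2ba, and 4 were higher with the lot as a block (30.4%). Among the 4 large classes alone, 55 of 62 members were higher and 2 lower in epithelial-like cells than in the mean of the other 3 (27.8% of all genes higher). In stromal-like cells 37 were higher and 3 lower (31.5% higher), but 24 were higher without lot 26, and in pre-granulosa-like cells 52 were lower and 3 higher (33% lower). In germ-like cells 19 were higher and 13 lower (38.8% and 41.3%). The 3 members higher in pre-granulosa-like cells (33.1% of all genes) were Hist3h2a (1.18 ± 0.23, adjusted p = 0.000502), Hist3h2ba (0.69 ± 0.08, adjusted p = 2.89e-06) and Hist1h2al (0.57 ± 0.18, adjusted p = 0.0119). They are 3 of the 4 members also seen without Top2a or Mki67 UMIs, but this overlap is not independent of that rule. The rule used all kept cells, and 3445 of 5471, 3071 of 5373 and 4069 of 6488 cells without such UMIs were pre-granulosa-like (lots 26, 29 and 30). The share of cells with Top2a or Mki67 UMIs differed between the classes, at 15.5 to 22.4% in pre-granulosa-like, 41.9 to 51.6% in stromal-like and 56.6 to 64.0% in epithelial-like cells.

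Among cells with Top2a or Mki67 UMIs at full depth, 31 of 61 members were lower in germ-like cells than in the mean of the 3 somatic classes (39.7% of all genes) and 3 were higher (39.6% of all genes), with a median of -0.48. With the block, 45 were lower and 5 higher (42.7 and 42.3% of all genes), Hist1h1a and Hist1h4n being added to those higher. The 3 higher were Hist1h2aa and Hist1h2ba, which encode the germline H2A and H2B known as TH2A and TH2B, and Hist1h1t, the testis-specific linker histone. Hist1h2aa was at 72.9, 64.0 and 47.4 CPM in germ-like cells and at most 0.677 CPM in any lot of the somatic classes (log2 difference 7.79 ± 0.27, adjusted p = 6.56e-12). Hist1h2ba was at 27.8, 15.1 and 17.4 CPM and at most 0.755 CPM elsewhere (5.69 ± 0.31, adjusted p = 5.81e-10). Some somatic sums held no UMI of either gene, so that these fitted differences depend on the prior count. Hist1h1t was at 6.29, 6.87 and 6.61 CPM in germ-like cells and between 1.51 and 3.18 CPM in the somatic classes (1.39 ± 0.17, adjusted p = 2.49e-06). All 3 genes thus had every germ-like lot above every somatic lot. The cells compared here differed in depth, with medians of 18252 to 24064 UMIs in germ-like cells and 9391 to 16256.5 in the somatic classes. A single Top2a or Mki67 UMI is more easily met in a deeper cell. This split was not corrected for depth, and what part this had in the members lower in germ-like cells was not tested.

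Members of the Hist3 and Hist2 clusters were among those lower in germ-like cells with Top2a or Mki67 UMIs. Hist3h2ba was at 8.52, 9.40 and 9.96 CPM, against 30.5 to 71.4 CPM over the lots of the somatic classes (-2.26 ± 0.12, adjusted p = 2.64e-10). Hist3h2a was at 2.39, 2.09 and 3.76 CPM (-2.21 ± 0.35, adjusted p = 3.78e-05). Hist2h2ac, an H2A gene on chromosome 3, was at 87.1, 93.9 and 75.9 CPM against 121 to 470 CPM (-1.67 ± 0.23, adjusted p = 1.27e-05). Hist1h1b differed by -1.04 ± 0.21 (adjusted p = 0.000417), while Hist1h2ae (-0.59 ± 0.32, adjusted p = 0.105) and Hist1h3c (-0.42 ± 0.30, adjusted p = 0.208) passed only with the lot as a block (adjusted p = 1.03e-06 and 0.00277).

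**Figure D3:**
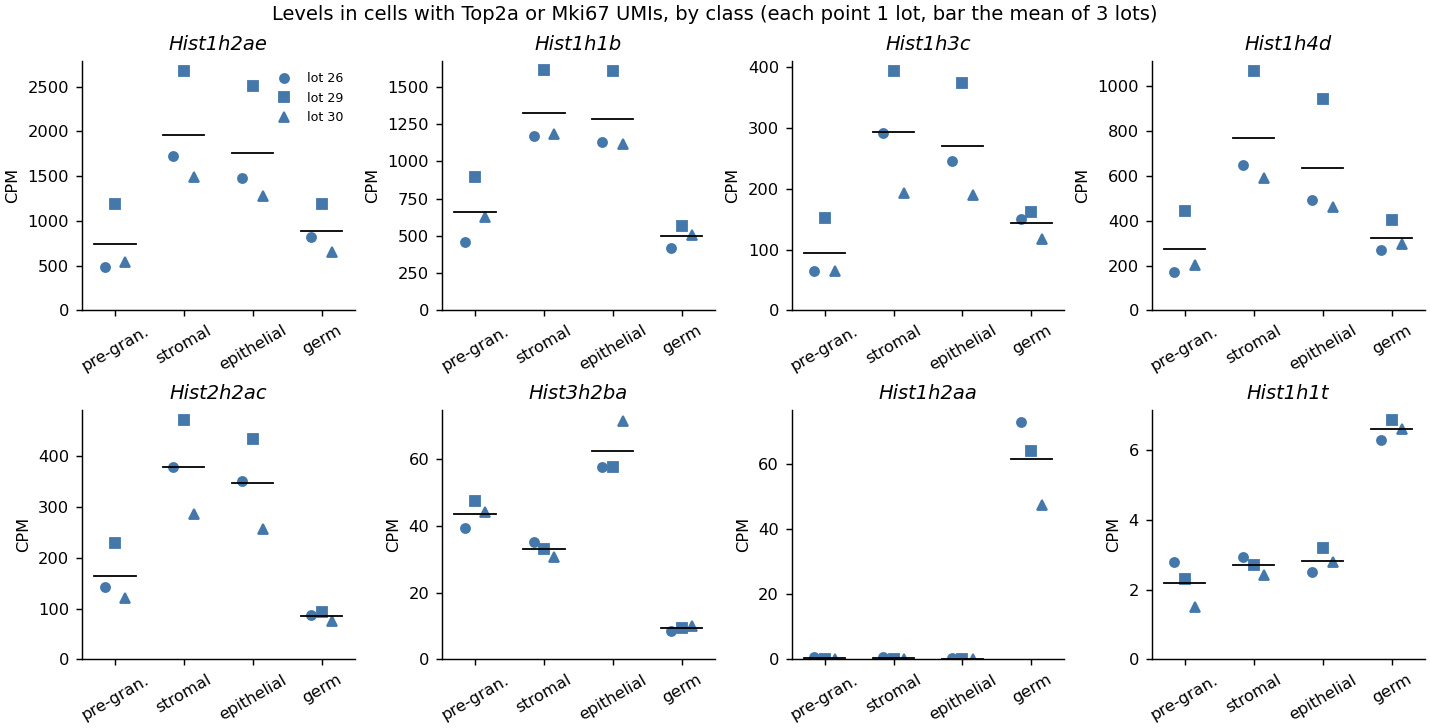
Level in CPM (y axis) of 8 members in cells with Top2a or Mki67 UMIs of the 4 large classes (x axis), with 1 point per lot and a bar at the mean of 3 lots. Hist1h2aa and Hist1h1t are highest in germ-like cells in every lot, Hist3h2ba and Hist2h2ac are lowest there, and lot 29 is highest within each class for Hist1h2ae, Hist1h1b, Hist1h3c and Hist1h4d.

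Shares of cells showed the same 3 genes in a minority of germ-like cells. At full depth Hist1h2aa had a UMI in 28.7, 26.4 and 26.9% of germ-like cells of lots 26, 29 and 30. The exact 95% intervals were 25.5 to 32.0, 21.8 to 31.5 and 22.6 to 31.7%. In pre-granulosa-like cells, set beside them as a somatic level, the shares were 0.428, 0.0825 and 0.114%. What part free RNA, doublets or RNA of the cells themselves had in that level was not tested. Germ-like cells were deeper, with medians of 18134 to 23767 UMIs against 8328 to 11245. After thinning to 4000 UMIs, a depth that 746, 336 and 382 germ-like cells and 4431, 3591 and 5230 pre-granulosa-like cells reached, the shares were 15.3, 14.0 and 9.42% against 0.158, 0.0278 and 0.0574%. Hist1h2ba had a UMI in 10.1, 6.55 and 4.97% of germ-like cells against 0.135, 0.0835 and 0.0382% at 4000 UMIs, and in 24, 16.6 and 17.1% against 0.451, 0.0825 and 0.324% at full depth. Hist1h1t gave 2.41, 2.68 and 3.66% against 0.316, 0.390 and 0.229% at 4000 UMIs, and 9.73, 9.79 and 12.7% against 1.04, 0.660 and 0.915% at full depth. The intervals cover counting error only. Within germ-like cells, those with 5 or more UMIs of Stra8, which marks entry into meiosis, had 83.7, 80.3 and 53.4 CPM of Hist1h2aa, against 28.9, 2.50 and 15.3 CPM in those with none. For Hist1h2ba the values were 32.4, 17.6 and 19.6 CPM against 6.88, 6.26 and 5.57 CPM. For Hist1h1t they were 6.64, 6.59 and 7.28 CPM against 4.82, 2.50 and 2.78 CPM. The cells with 1 to 4 Stra8 UMIs had 4.78, 10.4 and 3.63 CPM of Hist1h1t, so that its level did not go up steadily with Stra8. The cells without Stra8 UMIs numbered only 29 to 82 per lot, and in every lot they were shallower than those with 5 or more (medians of 16226, 17910 and 20735 against 22485, 18135 and 24386 UMIs). This split was chosen after the levels were seen and was not tested.

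Hist1h2aa (chr13:23934462-23934851, plus) and Hist1h2ba (chr13:23933773-23934156, minus) are neighbours that point away from each other, with 305 bases between them. The 250 bases before the RefSeq starts of the 2 genes share 220 bases. This stretch is printed because it lies between the pair of members with the highest log2 differences in germ-like cells, with 3 motifs in capitals where either strand matches: ATTTGCAT (the octamer known from H2B promoters), TATAAA and CCAAT (RefSeq, GRCm38.p6, chr13:23934187-23934436, plus strand). The upstream stretch of Hist1h4d (chr13:23581318-23581567, plus) is given as an H4 gene with TATAAA and CCAAT but no octamer.
Hist1h2aa: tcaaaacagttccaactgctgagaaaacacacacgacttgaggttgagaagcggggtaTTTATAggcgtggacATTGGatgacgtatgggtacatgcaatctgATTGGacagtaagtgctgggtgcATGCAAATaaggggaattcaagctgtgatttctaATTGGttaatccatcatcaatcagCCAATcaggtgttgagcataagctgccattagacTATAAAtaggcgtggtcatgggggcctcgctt
Hist1h4d: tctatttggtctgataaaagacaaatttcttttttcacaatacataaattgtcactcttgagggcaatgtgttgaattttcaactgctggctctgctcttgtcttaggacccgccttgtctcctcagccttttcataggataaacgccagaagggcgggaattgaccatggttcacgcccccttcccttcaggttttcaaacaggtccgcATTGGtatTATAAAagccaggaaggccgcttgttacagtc
RefSeq promoters (250 bases before to 50 after the start) were matched for 61 members. The octamer was found in 13 of them, 7 of 17 H2A and 6 of 16 H2B and no H1, H3 or H4 gene, against 1.735% of all 32851 promoters in the table. CCAAT was found in all 49 matched members that are not H4 genes and in 3 of 12 H4 genes, against 37.4% of all promoters, and TATAAA in 35 of 61 members against 13.6%. H2A and H2B genes often lie in such divergent pairs, so that members share promoter sequence and are not independent. A match is only a description of these windows.

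The annotated transcript ends were set beside the contrast by Top2a or Mki67 UMIs as a description. The 18 tested members whose transcript ends within 100 bases after the hairpin had a median log2 fold change of 2.48 (range 1.39 to 5.07). The 22 that run on for 100 bases or more had a median of 1.75 (range -0.47 to 2.97), and the 22 tested members without a hairpin in their annotation 2.45 (range 0.16 to 5.95). A hairpin past the annotated end would be missed in this last group. The hexamer AATAAA stood in the last 50 bases of a transcript of 15 members. The 13 of these that were tested had a median of 1.18, against 2.35 for the 49 tested members without it. It was present in 3 of the 4 members also seen without Top2a or Mki67 UMIs, Hist3h2a, Hist3h2ba and Hist2h2be, and absent from the pseudogene Hist1h2al. Hist1h2ae also carried it, with a log2 fold change of 2.97.

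**Figure D4:**
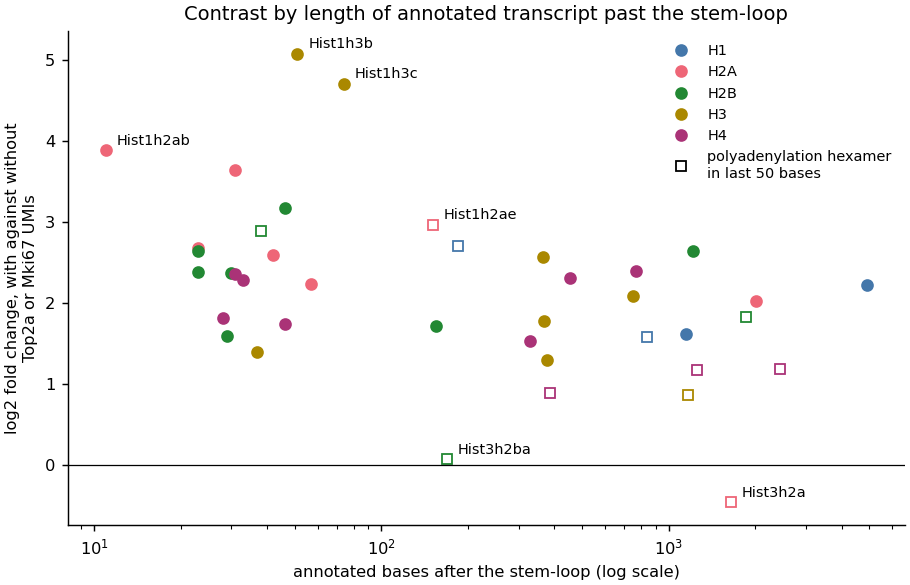
Log2 fold change of cells with against cells without Top2a or Mki67 UMIs (y axis) against the number of annotated bases after the hairpin (x axis, log scale) for the 40 tested members with a hairpin. Each point is 1 gene coloured by histone type, open squares carry the polyadenylation hexamer near the annotated end, and the 4 members above 3.5 on the y axis all end within 100 bases while Hist3h2ba and Hist3h2a lie at 0.07 and -0.47.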

How the data were processed

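The authors processed the reads with UMI-tools, STAR 2.7 (GRCm38) and featureCounts 2.0.1 (Subread), using uniquely mapped reads, and deposited 1 table of raw UMI counts per lot, per the labels. The annotation release and the strand setting are not given in the sources used here. The tables of lots 26, 29 and 30 held 9763, 8567 and 10773 barcodes with 126680758, 87494974 and 141920060 UMIs. All values were whole numbers.

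Members and lists were chosen with earlier results of these data known. Cells with 200 to 9000 genes and at most 10% mt- UMIs were kept. Clusters were made in Seurat 5.3.0 (2000 variable genes, 47 of them held out, 50 components, resolution 0.8) and named from marker lists. Scrublet in scanpy 1.11.5 called 4.06 to 5.93% of cells doublets. They were kept, and removed in an alternative. UMIs were summed per lot, class and state (at least 10 cells) and tested over all genes with edgeR 4.0.16 (quasi-likelihood, TMM, filterByExpr, Benjamini-Hochberg, 0.05). DESeq2 1.42.0 was an alternative. Contrasts that needed germ-like cells without Top2a or Mki67 UMIs used the split at 4000 UMIs, since too few such cells existed at full depth, which departs from the planned design. The fits over cells with such UMIs and over 4 classes were added after the data were seen. Values per lot are given for the 12 members with the highest mean CPM, the highest of each histone type, and the 5 with the largest and the 5 with the smallest log2 fold change (at least 1 CPM). Others were chosen after their values were seen.

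The lots pair the sums, since both states of a lot come from the same pool: deviations of its 2 states correlated at 0.812, 0.884 and 0.821 over 7720 genes. The embryos are pooled within lots, so p-values measure the spread between 3 pools. Depth limits members with few UMIs, and intervals cover counting error only. On simulated data with 200 changed genes, the all-cell comparison recovered 62.5% of them, with 6.02% false calls.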

Additional observations from a re-analysis of the deposited data

Results flagged for a closer look

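The contrast between cells with and without Top2a or Mki67 UMIs differed between germ-like cells and the mean of the 3 large somatic classes in 36 members, by the interaction term of the edgeR fit at the 4000-UMI split. Each difference was below 0, so the contrast at this split was smaller in germ-like cells. Among H2A genes the difference on the log2 scale was -3.64 for Hist1h2af, -2.93 for Hist1h2ah, -2.81 for Hist1h2ab, -2.25 for Hist1h2an, -2.06 for Hist1h2ae, -1.92 for Hist2h2ac and -1.50 for Hist1h2ai. Among H3 genes it was -3.16 for Hist1h3b, -3.13 for Hist1h3c and -1.27 for Hist1h3e. It was -2.08 for the H2B gene Hist1h2bj and -1.56 for the H4 gene Hist1h4d. The linker histone genes Hist1h1b and Hist1h1e differed by -2.05 and -0.95. Most germ-like cells without such UMIs at 4000 UMIs had one at full depth, and the part of this in the difference was not tested. At full depth the summed members were at 4787.5 ± 604 CPM with and 1246 ± 334 CPM without in germ-like cells. Only 8, 12 and 7 germ-like cells per lot had none. Pre-granulosa-like cells were at 4300.5 ± 1374 and 1546 ± 129 CPM, stromal-like at 10178 ± 2156 and 1145 ± 122 CPM. Epithelial-like cells were at 9273 ± 2142 and 1341 ± 130 CPM. Groups of 3 lots are too small to test for a single lot that stands apart.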

How the results depend on the processing

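Of 332 counts under an alternative, 302 stayed within 1.5 times the reported count and 30 did not, and no named member reversed. The cause of the shifts was not tested. The share of all genes called in the same fit and direction stands in brackets below. The replicate block (lot) gave 1 member lower over all cells (33.0%) and 42 higher in germ-like cells (4.79%). It gave 5 lower in germ-like cells without Top2a or Mki67 UMIs (36.9%) and 5 higher in those with such UMIs (42.3%). It also gave 4 higher in pre-granulosa-like cells among 7 classes (30.4%), and 10 higher (16.4%) and 9 lower (15.5%) with S phase UMIs. In the 4 comparisons where single members were compared between the fits, the block added calls for named members: 2 over all cells (Hist3h2a and Hist1h2al), 9 with S phase UMIs, and in germ-like cells 5 with and 3 without Top2a or Mki67 UMIs. None was lost. DESeq2 gave 5 lower in germ-like cells without such UMIs (32.8%). Among 7 classes it gave 12 lower in germ-like (35.7%), 48 in pre-granulosa-like (28.7%), 1 in epithelial-like (26.7%) and 1 in stromal-like cells (23.1%). Among 4 classes it gave 1 lower in epithelial-like cells (28.5%), as did removing called doublets (26.7%). Without a low-count filter 16 members were higher in germ-like cells (0.963%), and with 3 or more S phase UMIs 3 were higher (6.14%). Clusters at resolution 0.4 gave 0 higher in pre-granulosa-like cells (0.0516%). They gave 13 members with a difference below 0 between germ-like and somatic classes (1.48%).

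Leaving out 1 lot gave 1 to 16 members higher in germ-like cells (0.0561 to 0.945% of all genes). It gave 23 to 34 with a difference below 0 between germ-like and somatic classes (1.89 to 2.48%). In germ-like cells without such UMIs 3 to 5 were lower (29.4 to 31.8%). Among 4 classes it gave 1 to 2 lower in epithelial-like cells (17.6 to 25.3%). In stromal-like cells 24 to 36 were higher (25.5 to 27.9%) and 1 to 3 lower (21.7 to 30.5%). With S phase UMIs it gave 0 lower. Hist1h4j lost its call without lot 26 or 30 (adjusted p = 0.0804 and 0.0971 in the edgeR test). The full-depth split and the split at 2 or more Top2a or Mki67 UMIs could not be fitted for germ-like cells.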
